A study of Mus musculus with 24 samples.

Results

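The Hox genes are the homeodomain transcription factor genes that lie in the 4 clusters HoxA, HoxB, HoxC and HoxD. The members described here were the protein-coding genes whose symbol is Hoxa, Hoxb, Hoxc or Hoxd followed by a number, and 39 of the 39056 genes in the count table met this rule. On GRCm38 the clusters were HoxA with 11 genes (minus strand of chromosome 6, from 52155590 to 52260880), HoxB with 10 (plus strand of chromosome 11, from 96194316 to 96368256), HoxC with 9 (plus strand of chromosome 15, from 102921103 to 103036852) and HoxD with 9 (plus strand of chromosome 2, from 74668310 to 74765142).

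RNA was sequenced from live CD45+ cells (immune cells) and CD45- cells (all others). They were sorted from the ileum of C57BL/6 mice aged 9 to 10.3 weeks, after a part of the epithelial preparation had been mixed with the lamina propria one. Every mouse carried floxed *Il4ra*, either without Cre (*Il4ra f/f*) or with a Cre that the villin promoter drives in the intestinal epithelium (*Il4ra ΔIEC*), so CD45+ cells are not its target. Both were combined with *Hoil1+/+* or *Hoil1-/-*, which gave 4 genotypes, named below by *Hoil1* genotype and f/f or ΔIEC, with 3 libraries for each genotype and fraction and 24 in all. The *Hoil1-/-* allele is germline, acts in every cell, and leaves some of the N-terminal part of HOIL1. Unless stated otherwise, values are from the 21 libraries of the study's sample list, 11 of CD45- and 10 of CD45+ cells, which keeps 2 CD45- libraries of *Hoil1-/-* f/f mice and 2 CD45+ libraries of each *Hoil1-/-* genotype. The labels do not say which CD45- and CD45+ libraries came from the same mouse.

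Hox genes act in the order in which they sit in a cluster. The low-numbered genes at one end work in anterior parts of the embryo and the high-numbered genes at the other end in posterior parts, and genes of the same number in different clusters form a paralog group. In the gut they pattern the wall along its length and many remain active in adult mesenchymal and endothelial cells, while in blood several HoxA and HoxB genes, *Hoxb4* among them, are known for roles in stem and progenitor cells. TALE proteins (PBX, MEIS and PKNOX) bind DNA together with Hox proteins, and CDX proteins are relatives that pattern the intestinal epithelium.

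Promoter windows of 4 members are printed because they cover the range seen in the data. *Hoxb8* was among the members most restricted to CD45- cells, *Hoxd8* was the leading gene of HoxD, *Hoxb4* led in CD45+ cells, and *Hoxa13* had no count in any of the 24 libraries. Each window is the 250 bases before the RefSeq start on GRCm38.p6, 5′ to 3′ on the strand of the gene, and none overlapped an annotated exon. They are chr11:96281655-96281904 on the plus strand (*Hoxb8*), chr2:74704365-74704614 on the plus strand (*Hoxd8*), chr11:96318017-96318266 on the plus strand (*Hoxb4*) and chr6:52260881-52261130 on the minus strand (*Hoxa13*). Capitals mark matches on either strand to 4 motifs. The first is CCAAT, which NF-Y binds. The second, of CDX type, is TTTATNG. The third, for Hox with PBX, is TGATNNAT. The last is the TATA box, TATAAA.
Hoxb8: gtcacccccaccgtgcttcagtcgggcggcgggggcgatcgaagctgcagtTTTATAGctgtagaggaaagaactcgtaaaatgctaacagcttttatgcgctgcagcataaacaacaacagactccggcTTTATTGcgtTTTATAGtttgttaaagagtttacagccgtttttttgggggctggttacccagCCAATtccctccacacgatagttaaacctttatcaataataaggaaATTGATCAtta
Hoxd8: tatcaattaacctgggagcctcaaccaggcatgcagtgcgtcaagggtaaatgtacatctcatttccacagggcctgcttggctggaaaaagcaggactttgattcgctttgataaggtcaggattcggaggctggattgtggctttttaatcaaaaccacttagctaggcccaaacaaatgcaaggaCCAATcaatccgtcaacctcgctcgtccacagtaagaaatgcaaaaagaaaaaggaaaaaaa
Hoxb4: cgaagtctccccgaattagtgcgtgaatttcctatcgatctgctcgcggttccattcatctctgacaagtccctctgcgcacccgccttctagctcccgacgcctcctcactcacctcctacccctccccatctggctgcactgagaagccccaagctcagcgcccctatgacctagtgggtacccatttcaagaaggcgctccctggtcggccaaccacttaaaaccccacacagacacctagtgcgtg
Hoxa13: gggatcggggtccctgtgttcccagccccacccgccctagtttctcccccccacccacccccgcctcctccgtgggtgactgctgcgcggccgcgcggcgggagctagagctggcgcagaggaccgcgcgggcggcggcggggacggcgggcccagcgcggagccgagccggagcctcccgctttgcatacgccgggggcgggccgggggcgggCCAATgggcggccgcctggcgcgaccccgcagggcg

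The *Hoxb8* window held matches to all 4 motifs, with 3 to TTTATNG, of which 2 overlap a match to TATAAA. The *Hoxa13* window was 80.0% G and C with 35 CpG dinucleotides, and the *Hoxd8* window 44.4% with 6. RefSeq promoters were given for 22 of the 39 members (24 windows). CCAAT was present in 58.3% of these windows and in 33.8% of all 32851 windows of that length, TTTATNG in 8.33% and 9.81%, TGATNNAT in 16.7% and 7.68%, and TATAAA in 16.7% and 12.4%. The median number of CpG dinucleotides was 12.5 in the Hox windows and 6 over all windows.

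Libraries held 6028275 to 68345191 counts in CD45- and 14938629 to 76807504 in CD45+ cells. *Rbck1*, which encodes HOIL1, was between 72.9 and 159 CPM (counts scaled to a common library size with TMM factors) in *Hoil1+/+* and between 2.75 and 15.9 CPM in *Hoil1-/-* libraries. *Ptprc*, which encodes CD45, was between 346 and 757 CPM in CD45+ and between 0 and 16.2 CPM in CD45- libraries. The CD45- libraries differed widely in their cell mixture. The summed level of 10 epithelial markers ran from 1701 to 17406 CPM, that of 12 blood endothelial markers from 2676 to 18835 CPM, and that of 9 fibroblast markers from 486 to 10011 CPM. That of 3 erythroid markers ran from 1314 to 5575 CPM in CD45- and from 1.54 to 43.4 CPM in CD45+ libraries. Both *Hoil1-/-* f/f CD45- libraries on the list were epithelium-rich, with epithelial sums of 17406 and 15972 CPM and endothelial sums of 2676 and 5327 CPM. So were *Hoil1+/+* ΔIEC replicates 1 and 2, with epithelial sums of 15751 and 14062 CPM and endothelial sums of 4811 and 4699 CPM. The 39 Hox genes summed to 116 and 136 CPM in these, and to 51.6 and 98.8 CPM in the *Hoil1-/-* f/f libraries. In bulk RNA of this kind, fewer cells of a type and less RNA per cell cannot be told apart.

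In CD45- cells the Hox genes formed blocks of neighbouring genes, with almost no counts at the posterior end of every cluster. Of the 39 members, 22 were at 0.5 CPM or above in most (at least 6) of the 11 CD45- libraries, and 10 were so in all of them. In CD45+ cells these numbers were 5 (at least 6 of 10 libraries) and 1. All 15 members of the central groups 4 to 8 were detected in most of the CD45- libraries, against 5 of 8 anterior (groups 1 to 3) and 2 of 16 posterior ones (groups 9 to 13). None of the 12 genes of groups 10 to 13 reached that mark in either fraction. By cluster, 8 of 10 HoxB genes, 7 of 11 HoxA genes, 4 of 9 HoxC genes and 3 of 9 HoxD genes reached it in CD45- cells, the most posterior being *Hoxa7*, *Hoxb9*, *Hoxc8* and *Hoxd9*. Of these, *Hoxd9* was low, at a mean of 0.712 CPM. In CD45+ cells 4 HoxB genes and 1 HoxA gene did so, and no gene of HoxC or HoxD.

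HoxB received most of the Hox reads, in sums that are not corrected for gene length. The summed level of its 10 genes in CD45- cells was 91.2 ± 37.3 CPM (SD, n = 11), against 55.0 ± 25.5 CPM for HoxA, 16.8 ± 7.74 CPM for HoxC and 10.5 ± 6.34 CPM for HoxD. In CD45+ cells the sums were 14.9 ± 3.56 CPM (SD, n = 10) for HoxB, 3.16 ± 1.19 CPM for HoxA, 1.30 ± 1.198 CPM for HoxC and 0.490 ± 0.702 CPM for HoxD. All 39 genes together ran from 51.6 to 291 CPM in CD45- and from 14.9 to 26.0 CPM in CD45+ libraries, so the fractions did not overlap in this sum.

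**Figure D1:**
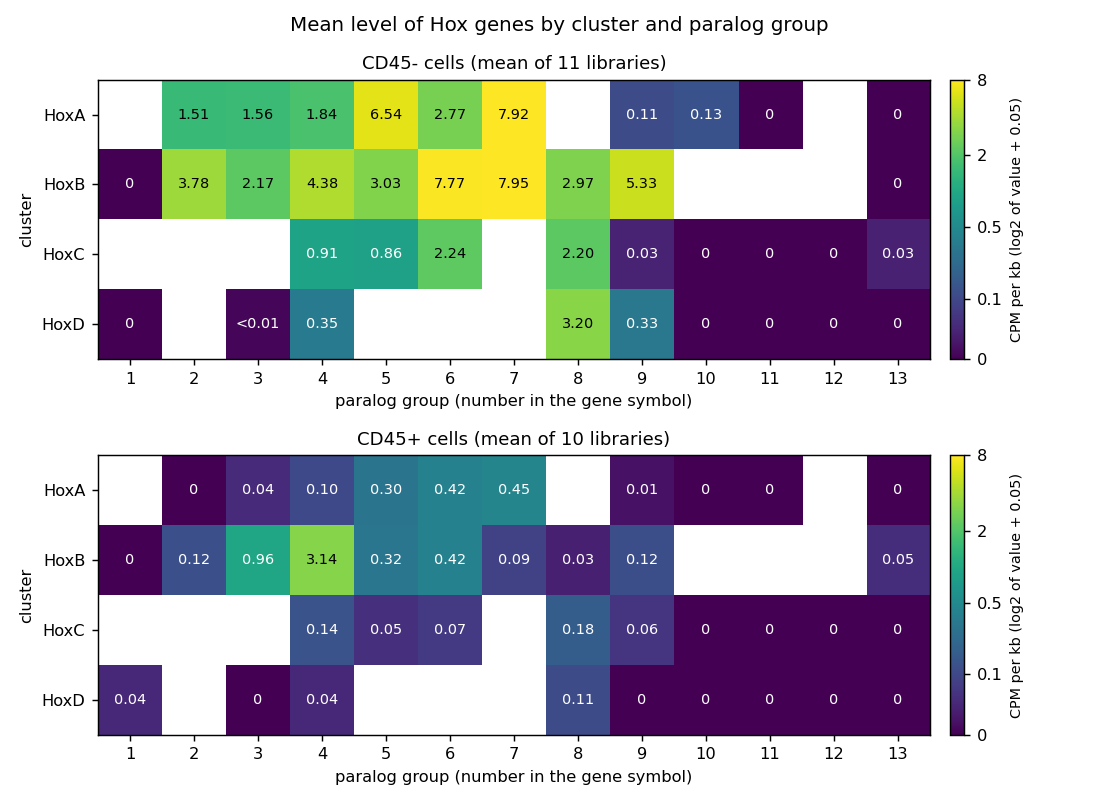
Mean level per kilobase of exon of Hox genes (number and colour, CPM per kb, log2 colour scale with 0.05 added) by cluster (rows) and paralog group (columns) in 11 CD45- libraries (upper panel) and 10 CD45+ libraries (lower panel). White cells hold no value. In CD45- cells *Hoxb7*, *Hoxa7*, *Hoxb6*, *Hoxa5* and *Hoxb9* have the highest levels, while in CD45+ cells *Hoxb4* at 3.14 CPM per kb leads.

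The mean level per kilobase of exon in CD45- cells was highest for *Hoxb7* (7.95 CPM per kb), *Hoxa7* (7.92 CPM per kb), *Hoxb6* (7.77 CPM per kb) and *Hoxa5* (6.54 CPM per kb), followed by *Hoxb9* (5.33 CPM per kb) and *Hoxb4* (4.38 CPM per kb). The first 4 differ from each other by less than the spread between libraries of any one of them. *Hoxa7*, a gene of axial patterning, ran from 7.07 to 36.2 CPM in CD45- libraries with a median of 22.7 CPM. *Hoxb7* ran from 2.55 to 17.8 CPM (median 14.8 CPM), *Hoxb6* from 2.98 to 25.7 CPM (median 15.1 CPM) and *Hoxa5*, which is needed for the lung and the gut wall, from 1.10 to 23.8 CPM (median 12.98 CPM). Each of the 4 was therefore present in every CD45- library, but over a range of 5.12-fold for *Hoxa7* and up to 21.6-fold for *Hoxa5*. *Hoxb9* varied least of the members present in every library, from 7.62 to 17.5 CPM (2.29-fold).

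*Hoxb9* was also the one posterior gene present at such a level, since the other posterior genes were near or at 0. *Hoxa9*, *Hoxd9* and *Hoxa10* had means of 0.636, 0.712 and 0.428 CPM in CD45- cells, and *Hoxc9* one of 0.0794 CPM. No count was found in any of the 24 libraries for 10 members, namely *Hoxa11*, *Hoxa13*, *Hoxb1*, *Hoxc10*, *Hoxc11*, *Hoxc12*, *Hoxd10*, *Hoxd11*, *Hoxd12* and *Hoxd13*. All of these but *Hoxb1*, a hindbrain gene, are posterior genes. A count of 0 allows a level of up to 3 counts, which is 0.210 CPM on average in a CD45- library and 0.0866 CPM in a CD45+ library, for counting error only. The anterior genes *Hoxd1* and *Hoxd3* had 12 and 5 counts in all 24 libraries. *Hoxd3* and *Hoxd4* are uncertain, because 62.3% and 52.3% of their exonic length is shared with each other or with another annotated gene on the same strand, where counting can lose or split reads.

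CD45+ cells had another order of levels. *Hoxb4* led with 3.14 CPM per kb, followed by *Hoxb3* (0.956 CPM per kb), *Hoxa7* (0.451 CPM per kb) and *Hoxb6* and *Hoxa6* (both 0.420 CPM per kb). *Hoxb4*, known for its effect on blood stem cells, was at 0.5 CPM or above in all 10 CD45+ libraries, from 5.30 to 10.8 CPM with a median of 7.99 CPM. It was the only member of which this was true, and the 2 CD45+ libraries outside the sample list had 9.83 and 7.60 CPM. *Hoxb3*, its neighbour, ran from 0 to 8.23 CPM and was above 0 in 9 of 10 libraries. Together these neighbours made up between 34.2% and 77.4% of the summed Hox CPM in a CD45+ library (median 62.8%), against between 6.47% and 19.4% in a CD45- library. *Hoxb3* carries a limit of annotation, as 52.9% of its exonic length overlaps genes that are not in the count table.

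Most other members were sporadic or absent in CD45+ cells. *Hoxa7* was above 0 in 9 of 10 libraries at up to 2.46 CPM and *Hoxb5* in 9 of 10 at up to 1.80 CPM, but *Hoxb8* had counts in 1 library and *Hoxa2* in none. Of the 390 values (39 genes in 10 libraries), 285 were 0. The median of the other 105 was 40 counts and 4 of them were between 1 and 3, so that a gene was mostly either at 0 or well above a single read. In CD45- cells 194 of 429 values were 0 and the median of the others was 92 counts. The libraries were amplified by PCR from small amounts of RNA and carry no molecular identifiers, and the part of this in the values was not tested.

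The first comparison asked which members differed between the fractions. Of the 26 members that passed edgeR's filter, 17 were higher in CD45- cells (adjusted p under 0.05) and none lower, where 25.1% of all 18778 genes tested were called higher. The median fitted log2 fold change was 5.13 over the 26 members and -0.03 over all genes. From ratios of mean CPM, with a fraction at 0 set to its floor of 3 counts, these medians were 3.87 and 0.03. Every CD45- library lay above every CD45+ library for 7 members, *Hoxa2*, *Hoxa3*, *Hoxa7*, *Hoxb2*, *Hoxb7*, *Hoxb8* and *Hoxb9*, and 9.40% of all genes did so.

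For 7 of the 26 members, among them *Hoxa4*, *Hoxa6*, *Hoxa9*, *Hoxa10*, *Hoxb13* and *Hoxc9*, this contrast had no defined value, because at least 1 genotype was at 0 in every library on each side. The same was true of 2536 of all genes tested. These members are therefore untested, not unchanged. An additive model of fraction and genotype, chosen after seeing the data, gave a value for all 26 and called 18, all higher in CD45- cells, against 28% of all genes. It added *Hoxa4* and *Hoxa10*, and *Hoxc4* missed the threshold (adjusted p = 0.0622 by edgeR). In 13 of the 19 members with a defined value a genotype was at 0 in every library, so their fitted fold changes depend on the prior count that edgeR adds, and means are given for these.

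The members with the smallest adjusted p were central HoxA and HoxB genes. *Hoxa7* was at 22.8 ± 10.0 CPM (SD, n = 11) in CD45- and 1.30 ± 0.810 CPM (SD, n = 10) in CD45+ cells, with a log2 fold change of 4.23 ± 0.470 (SE, adjusted p = 1.65e-06 by edgeR). *Hoxb7* was at 12.3 ± 5.42 CPM against 0.134 ± 0.319 CPM (adjusted p = 2.23e-06 by edgeR), and *Hoxb6* at 15.3 ± 7.28 CPM against 0.825 ± 1.01 CPM (adjusted p = 3.34e-06 by edgeR). The separation of these 3 genes was complete for *Hoxa7* and *Hoxb7*, while the highest CD45+ library of *Hoxb6* (3.12 CPM) exceeded the lowest CD45- library (2.98 CPM).

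*Hoxb9*, a gene of the thoracic skeleton, was at 13.7 ± 3.11 CPM in CD45- and 0.310 ± 0.491 CPM in CD45+ cells (adjusted p = 4.42e-06 by edgeR). *Hoxb8*, which can hold myeloid progenitors in an immature state when overexpressed, was at 7.83 ± 3.51 CPM against 0.0749 ± 0.237 CPM (adjusted p = 1.86e-05 by edgeR). Both sit at the posterior side of the expressed HoxB block and were close to 0 in the listed CD45+ libraries. The CD45+ *Hoil1-/-* f/f library outside that list had 3.90 CPM of *Hoxb8*, above the lowest CD45- value of 2.98 CPM.

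Among the anterior genes, *Hoxa2*, a gene of the branchial arches, ran from 0.683 to 4.14 CPM in CD45- cells (mean 2.69 CPM) and had no count in any CD45+ library. It was at least 31.1-fold higher in CD45- cells against a floor of 3 counts per library (adjusted p = 5.31e-06 by edgeR). *Hoxb2* was at 13.2 ± 9.03 CPM in CD45- and 0.432 ± 0.444 CPM in CD45+ cells (adjusted p = 0.000354 by edgeR). *Hoxa3*, which is needed for the thymus and parathyroid, was at 9.35 ± 5.96 CPM against 0.263 ± 0.483 CPM (adjusted p = 0.000487 by edgeR). Thus these anterior genes of HoxA and HoxB showed the same direction as the central ones above. The anterior *Hoxb3* did not pass the test and is given below, and *Hoxb1* had no count.

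Of HoxC and HoxD, *Hoxc4*, *Hoxc5*, *Hoxc6*, *Hoxc8*, *Hoxd4*, *Hoxd8* and *Hoxd9* were called higher in CD45- cells. *Hoxd8* ran from 0.491 to 17.6 CPM in CD45- and from 0 to 1.62 CPM in CD45+ libraries (adjusted p = 0.000879 by edgeR), so the fractions overlapped. *Hoxc8*, of the thoracic skeleton and its motor neurons, ran from 0 to 10.3 CPM against 0 to 1.81 CPM (adjusted p = 0.000733 by edgeR), with the value of 0 in a single CD45- library. *Hoxd9* was low, from 0 to 1.53 CPM in CD45- cells and at 0 in all CD45+ libraries, at least 8.23-fold higher by the same floor (adjusted p = 0.000719 by edgeR).

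*Hoxb4* and *Hoxb3* were the 2 members with a defined test that did not pass. *Hoxb4* was at 11.3 ± 6.97 CPM in CD45- and 8.05 ± 1.65 CPM in CD45+ cells, a log2 fold change of 0.29 ± 0.36 (SE, adjusted p = 0.599 by edgeR). *Hoxb3* was at 9.24 ± 6.11 CPM against 4.07 ± 2.76 CPM, a log2 fold change of 0.79 ± 0.66 (SE, adjusted p = 0.372 by edgeR). Both genes overlapped widely between the fractions.

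Markers of CD45- cells were also found in the CD45+ libraries, at 2.84% of their CD45- mean for the epithelial list, 1.90% for the blood endothelial list, 2.11% for the fibroblast list and 1.31% for the muscle and pericyte list. *Hoxb7*, *Hoxb8*, *Hoxb9* and *Hoxa3* were at 1.09%, 0.957%, 2.26% and 2.81% of their CD45- mean. *Hoxa7* and *Hoxb5* were at 5.69% and 10.6%, *Hoxb3* at 44.0% and *Hoxb4* at 71.6%. Further lists were at 0.256% (enteroendocrine), 0.505% (erythroid), 0.679% (goblet), 1.87% (enterocyte), 2.13% (crypt stem) and 2.18% (Paneth). Only the lymphatic endothelial (29.8%), enteric glia and neuron (57.1%) and tuft cell (58.7%) lists lay higher. Of the tuft cell list, 2 of 7 genes were at 0.5 CPM or above in every CD45+ library and 1 had no count there. Whether CD45+ cells themselves express genes of these higher lists was not tested. The part of CD45- cells in the CD45+ Hox levels was not tested either.

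**Figure D2:**
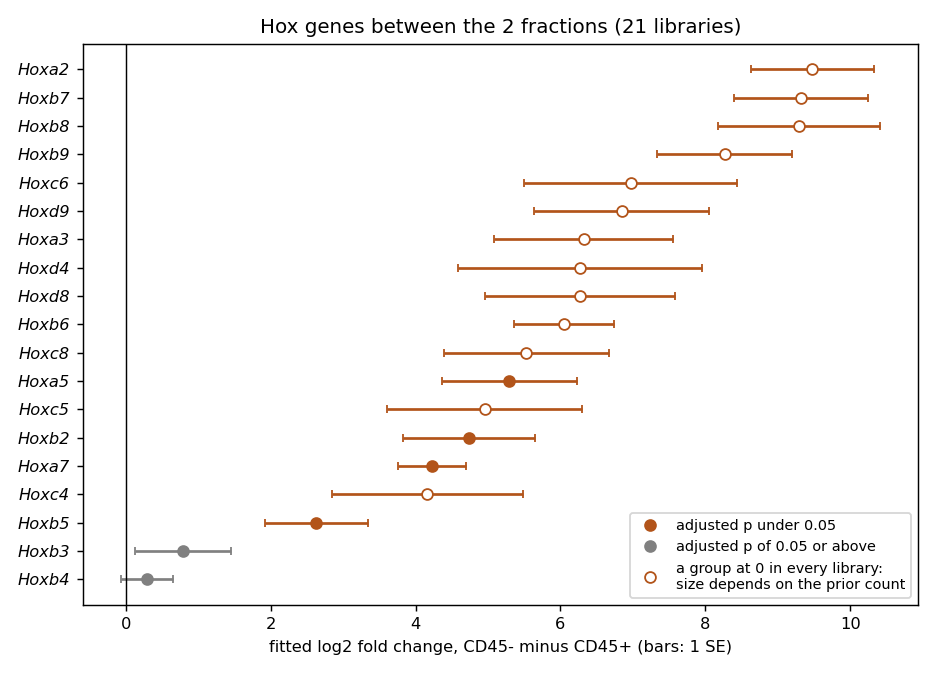
Fitted log2 fold change (CD45- minus CD45+, 21 libraries, horizontal axis) with 1 SE for the 19 Hox genes whose contrast had a defined value (vertical axis). Filled points have counts in every genotype on both sides, open points have a genotype at 0, and *Hoxb4* and *Hoxb3* in grey are the genes that did not pass the test.

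The fraction difference was of the same direction in both *Hoil1* genotypes. In *Hoil1+/+* mice 16 of 26 members were called higher in CD45- cells (23.8% of all genes) and in *Hoil1-/-* mice 16 (18.6% of all genes), with none lower in either. For the difference between these effects edgeR called no member (background 0.0266% of all genes), 6 had an unadjusted p under 0.05 (5.48% of all genes), and in 10 of the 26 the contrast had no defined value. DESeq2 called 3 (1.4% of all genes) and edgeR's likelihood ratio test 4 (1.1%), with *Hoxb9* and *Hoxb6* among those of both. In CD45+ cells *Hoxb9* was above 0 in 4 of 6 *Hoil1+/+* libraries, at up to 1.48 CPM, and at 0 in all 4 *Hoil1-/-* libraries. *Hoxb6* was above 0 in all 6 *Hoil1+/+* libraries, from 0.266 to 3.12 CPM, and in 1 of 4 *Hoil1-/-* libraries at 0.543 CPM. These levels are low. The listed CD45+ libraries held 14938629 to 52267821 counts in *Hoil1-/-* and 25222721 to 76807504 in *Hoil1+/+* mice, and the part of depth was not tested.

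Genotype was then compared within each fraction. In CD45- cells no member was called for the *Hoil1* effect averaged over *Il4ra* genotypes (24 tested by edgeR, background 0.0182% of all genes), and 4 had an unadjusted p under 0.05 (5.28% of all genes). DESeq2 called 2 members (1.02% of all genes), with *Hoxa4* lower in *Hoil1-/-* libraries, and the likelihood ratio test 1 (0.821%). For the *Il4ra* effect edgeR also called none (background 0% of all genes), with 7 at an unadjusted p under 0.05 (5.9% of all genes). DESeq2 called 2 members (0.966% of all genes), with *Hoxa4* higher in ΔIEC libraries, and the likelihood ratio test 1 (0.869%). *Hoxa4* had no count in the listed *Hoil1-/-* f/f libraries, which enter both of its DESeq2 calls. It was at 0.5 CPM or above in 7 of the 11 listed CD45- libraries and in 8 of all 12. The *Hoil1* and *Il4ra* contrasts had no defined value for *Hoxa9*. The median log2 fold change was -0.57 for the *Hoil1* effect and 0.83 for the *Il4ra* effect over the members, and -0.08 and 0.06 over all genes.

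For the interaction of *Hoil1* and *Il4ra* in CD45- cells edgeR again called none (background 0% of all genes), but 11 of 24 members had an unadjusted p under 0.05, as did 20.7% of all genes. The estimate was positive for 22 of 24 members, with a median of 2.64 against 0.29 over all genes. DESeq2 called 7 members (8.91% of all genes) and the likelihood ratio test 6 (7.43%). *Hoxa5*, *Hoxa6*, *Hoxa7*, *Hoxa9* and *Hoxb2* were among those of both. Of these, *Hoxa9* was at 0 in every listed library of 2 genotypes, and *Hoxa6* in those of 1. The counts of called members thus depend on the tool. In the 4 comparisons of single genotypes edgeR called no member either. The estimate of *Hoil1-/-* f/f minus *Hoil1+/+* f/f was above 0 for 3 of 24 members (median log2 fold change -1.57, 9 at an unadjusted p under 0.05 where 13.1% of all genes were, background 0.0365% called). That of *Hoil1-/-* ΔIEC minus *Hoil1-/-* f/f was above 0 for 20 (median 1.97, 11 at an unadjusted p under 0.05 where 17.7% of all genes were, background 0.0425% called). Between ΔIEC genotypes and between *Hoil1+/+* genotypes 2 members each had an unadjusted p under 0.05 (7.66% and 4.4% of all genes, background 0.00608% and 0% called). The low values were thus those of the 2 listed *Hoil1-/-* f/f libraries, which are both epithelium-rich, so genotype and cell mixture cannot be told apart in them. Their Hox sums were 51.6 and 98.8 CPM, against 193 CPM in the *Hoil1-/-* f/f library outside the list.

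*Hoxa5* was at 6.61, 15.3 and 16.4 CPM in *Hoil1+/+* f/f, at 9.53, 10.2 and 13.7 CPM in *Hoil1+/+* ΔIEC, at 1.10 and 4.51 CPM in *Hoil1-/-* f/f and at 20.9, 23.8 and 12.98 CPM in *Hoil1-/-* ΔIEC libraries. Its interaction was 2.97 ± 0.82 (log2, SE, adjusted p = 0.129 by edgeR).

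*Hoxa7* was also low in the *Hoil1-/-* f/f libraries, at 7.07 and 12.9 CPM. It was between 19.6 and 33.5 CPM in *Hoil1+/+* f/f and between 20.8 and 36.2 CPM in *Hoil1-/-* ΔIEC libraries. Its interaction was 2.20 ± 0.61 (log2, SE, adjusted p = 0.129 by edgeR). *Hoxb2* was at 2.36 and 3.26 CPM in *Hoil1-/-* f/f and between 12.4 and 27.2 CPM in *Hoil1+/+* f/f libraries (interaction 3.40 ± 0.93, log2, SE, adjusted p = 0.129 by edgeR). The CD45- *Hoil1-/-* f/f library outside the sample list did not share these low values, with 17.5 CPM of *Hoxa5*, 40.2 CPM of *Hoxa7* and 11.03 CPM of *Hoxb2*. Its endothelial sum was 9521 CPM and its epithelial sum 4651 CPM. With all 12 libraries 5 of 24 members had an unadjusted p under 0.05 for the interaction, where 14% of all genes did, and none was called.

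**Figure D3:**
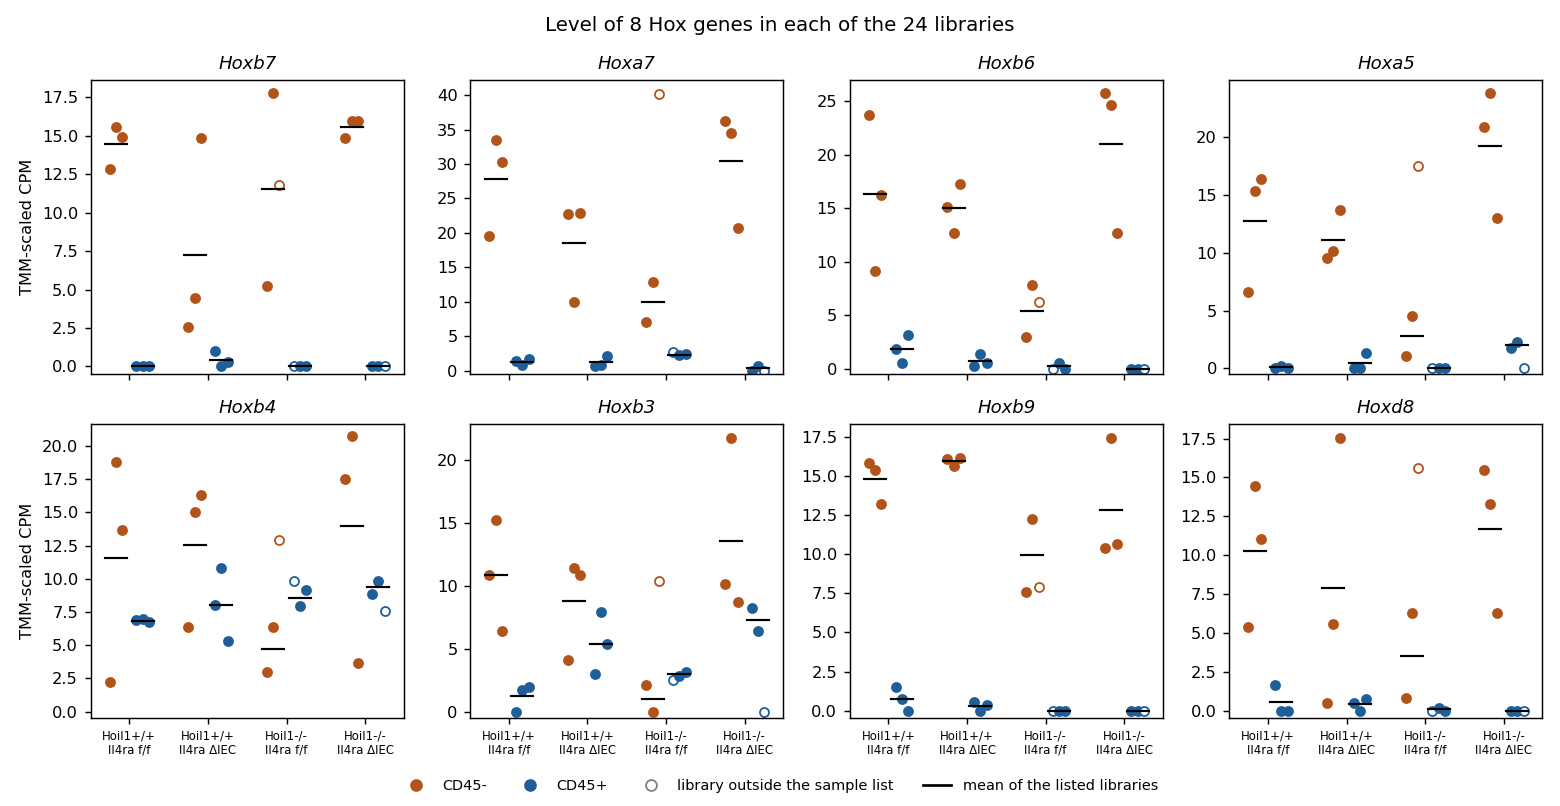
Level of 8 Hox genes (TMM-scaled CPM, vertical axes) in each library by genotype (horizontal axis), with CD45- cells in brown and CD45+ cells in blue. Open points are the 3 libraries outside the sample list and black lines the means of the listed libraries. *Hoxb4* overlaps between the fractions while *Hoxb7* and *Hoxb9* do not, and the open CD45- point of *Hoxa7* lies at 40.2 CPM, above the other 2 of its group.

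Levels of several members moved with the summed level of blood endothelial markers in a CD45- library. This relation was looked at after the mixture had been seen, for the 10 members at 0.5 CPM or above in all 11 CD45- libraries, against the log2 summed level of the 12 blood endothelial markers. In 6 of the 10 Pearson's r passed adjustment over the 10 genes (two-sided permutation test), as did Spearman's rho, and the lowest r of the 6 was 0.795. Over the 10731 genes detected in all of these libraries the median r was 0.170 and 12.4% reached 0.795. *Hoxa5* had r = 0.831 (permutation p = 0.0001, adjusted p = 0.001) and rho = 0.891 (permutation p = 0.00046, adjusted p = 0.0023). *Hoxa7* had r = 0.844 (permutation p = 0.0006, adjusted p = 0.003) and rho = 0.900 (permutation p = 0.00039, adjusted p = 0.0023). The other 4 were *Hoxa3*, *Hoxb2*, *Hoxb4* and *Hoxb8*. *Hoxb9* (r = 0.390, permutation p = 0.236, rho = 0.273, permutation p = 0.418) and *Hoxa2* (r = 0.220, permutation p = 0.506, rho = 0.155, permutation p = 0.655) did not pass.

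Without the 2 libraries farthest from the median of the endothelial sum, r was 0.768 for *Hoxa5*, 0.736 for *Hoxa7*, 0.662 for *Hoxb2* and -0.24 for *Hoxb9*. The marker sums of other cell types move with the endothelial one, and the labels give no batch within which the relation could be repeated. Libraries were permuted without regard to genotype, so the p-values do not separate this relation from differences between genotypes. The endothelial sums were 2676 and 5327 CPM in the listed *Hoil1-/-* f/f libraries and between 7264 and 18835 CPM in the *Hoil1-/-* ΔIEC ones. With the endothelial sum as a covariate, again chosen after seeing the data, 6 of 24 members had an unadjusted p under 0.05 for the interaction in place of 11, and 1002 (6.09%) in place of 3409 over all genes. Whether the mixture accounts for the interaction estimates was not tested.

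**Figure D4:**
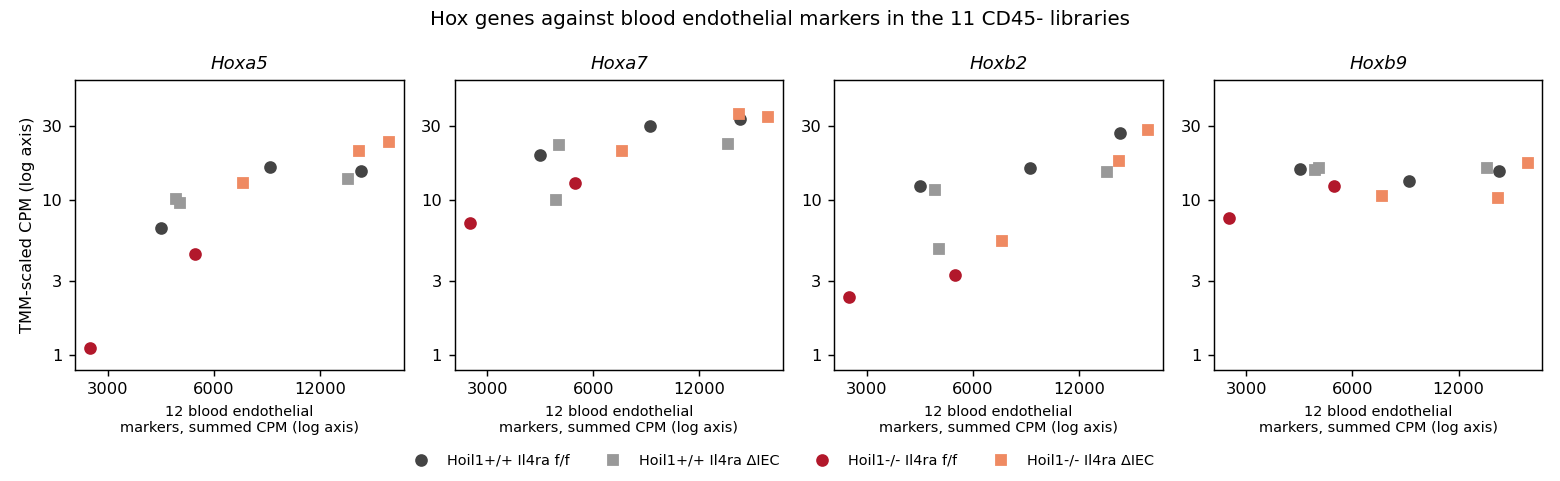
Level of 4 Hox genes (TMM-scaled CPM, log axis) against the summed level of 12 blood endothelial markers (CPM, log axis) in the 11 listed CD45- libraries, with 1 point per library and genotypes by colour and shape. *Hoxa5*, *Hoxa7* and *Hoxb2* are lowest in the *Hoil1-/-* f/f library with the smallest endothelial sum (2676 CPM), while *Hoxb9* stays between 7.62 and 17.5 CPM.

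In CD45+ cells edgeR called none of 20 members for the *Hoil1* effect (background 0.00587% of all genes), the *Il4ra* effect (0.00587%) or their interaction (0%), and neither did DESeq2 (0.74%, 2% and 0.94% of all genes) or the likelihood ratio test (0.605%, 1.18% and 0.399%). At an unadjusted p under 0.05 there were 4, 1 and 0 members, against 5.85%, 10.6% and 7.01% of all genes. The contrast had no defined value for 3, 5 and 6 of the 20. *Hoxb4*, the one member at a steady level, was at 6.87, 6.95 and 6.76 CPM in *Hoil1+/+* f/f, at 7.99, 10.8 and 5.30 CPM in *Hoil1+/+* ΔIEC, at 7.98 and 9.14 CPM in *Hoil1-/-* f/f and at 8.84 and 9.86 CPM in *Hoil1-/-* ΔIEC libraries. The groups lay close together, and its *Hoil1* effect was 0.25 ± 0.27 (log2, SE, adjusted p = 0.910 by edgeR). *Hoxb3* was between 0 and 1.97 CPM in *Hoil1+/+* f/f and between 3.01 and 7.89 CPM in *Hoil1+/+* ΔIEC libraries, and at 8.23 and 6.39 CPM in *Hoil1-/-* ΔIEC against 2.89 and 3.20 CPM in *Hoil1-/-* f/f libraries. Its *Il4ra* effect was 1.71 ± 0.93 (log2, SE, adjusted p = 0.526 by edgeR), and the *Hoil1-/-* ΔIEC library outside the list was at 0.

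High values of 3 HoxC genes were found in the CD45+ *Hoil1-/-* ΔIEC library outside the list. It had 3.82 CPM of *Hoxc4*, 3.69 CPM of *Hoxc5* and 4.85 CPM of *Hoxc9*, where the other CD45+ libraries had at most 1.24, 0.965 and 0.888 CPM.

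The genes that lie among the Hox genes were mostly silent. Of the 13 other genes of the count table within the clusters, *Gm53*, a lincRNA gene between *Hoxb13* and *Hoxb9* (chromosome 11, from 96251105 to 96264868, plus strand), was called higher in CD45- cells. It was present in all 11 CD45- libraries, from 1.34 to 8.77 CPM, and in 1 of 10 CD45+ libraries at 0.622 CPM (adjusted p = 6.58e-05 by edgeR). The pseudogene *Gm11539* was at 1.22 ± 0.633 CPM in CD45- and 1.69 ± 0.726 CPM in CD45+ cells (adjusted p = 0.559 by edgeR). *Hotair* and *Hoxa11os*, long non-coding RNAs of the posterior HoxC and HoxA clusters, had no count in the listed libraries, and *Haglr* had 3 counts in 1 CD45+ library. The neighbouring homeobox genes *Evx1* and *Evx2* had no count either.

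Partners of Hox proteins were expressed in both fractions. Of 9 TALE genes, 3 were called higher and 3 lower in CD45- cells, where 25.1% of all genes were called higher and 24.5% lower. *Meis2* was at 35.9 ± 19.6 CPM in CD45- and 0.260 ± 0.284 CPM in CD45+ cells (log2 fold change 8.19 ± 0.79, SE, adjusted p = 6.2e-07 by edgeR). *Meis3* had the opposite direction, with 7.54 ± 3.32 CPM against 15.5 ± 3.49 CPM (-1.22 ± 0.21, SE, adjusted p = 0.000155 by edgeR). *Meis1*, at 13.3 ± 8.51 CPM against 5.41 ± 2.35 CPM, did not pass (1.19 ± 0.57, SE, adjusted p = 0.097 by edgeR).

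The CDX genes of the intestinal epithelium were called higher in CD45- cells, 2 of the 3 tested among 6 relatives of the Hox genes outside the clusters. *Cdx1* was at 120 ± 45.9 CPM in CD45- and 2.80 ± 2.52 CPM in CD45+ cells (log2 fold change 5.57 ± 0.71, SE, adjusted p = 7.3e-06 by edgeR), and *Cdx2* at 78.3 ± 34.6 CPM against 2.30 ± 1.34 CPM (5.11 ± 0.59, SE, adjusted p = 2.64e-06 by edgeR). *Cdx4*, *Gsx1* and *Gsx2* had no count in the listed libraries.

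Regulators of Hox transcription were mixed. Of 15 Polycomb genes, which keep Hox genes silent, 8 were called lower and 2 higher in CD45- cells, against 24.5% lower and 25.1% higher over all genes. Of 10 Trithorax and related genes 5 were lower and none higher. Of 16 genes of retinoic acid signalling, which induces anterior Hox genes in embryos, 15 were tested, 6 were called higher and 3 lower in CD45- cells. *Cyp26b1*, which breaks down retinoic acid, was at 386 ± 376 CPM against 15.998 ± 11.4 CPM (4.33 ± 0.56, SE, adjusted p = 8.69e-06 by edgeR), with a spread between CD45- libraries as large as the mean. No gene of these lists was called for the *Hoil1* or *Il4ra* effect or their interaction in either fraction.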

How the data were processed

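The authors deposited raw counts of 39056 genes in 24 libraries, made with cutadapt, STAR (mm10, GRCm38) and featureCounts on an ENSEMBL annotation. The strand setting of the counting is not given in the sources used here, so reads of a Hox gene and of an overlapping antisense gene may not be separated. Versionless identifiers gave GENCODE M21 symbols to 38872 genes. The 3 libraries that the study left out as outliers enter only where stated.

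Tests used edgeR 4.0.16 in R 4.3.3 (quasi-likelihood, TMM scaling, filterByExpr with a minimum count of 10 and minimum total of 15, a mean for each group, two-sided, Benjamini-Hochberg adjustment over all genes tested, threshold 0.05), with both fractions in 1 fit for the fraction and each fraction apart for genotype. The scripts were first tested on simulated data. Levels are TMM-scaled CPM over all 24 libraries, divided by merged exon length where given per kb. Replicate numbers follow accession order and pair nothing. Nothing in the labels shows separate mice for each library, so p-values measure the spread between libraries. Alternatives were all libraries, DESeq2 1.42.0, the likelihood ratio test, RLE factors, no filter, each library left out and, added after seeing the data, an additive model and an endothelial covariate. The relation with endothelial markers used 100000 permutations. Any member could be named, with values by library for those highest per kb in a fraction or called. Members, gene lists and tests were chosen with earlier results of these data known. miRNAs of the clusters were not analysed here. A few genes are not reported here by name, although counts over lists include them.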

Additional observations from a re-analysis of the deposited data

How the results depend on the processing

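The number of members called between the fractions was 17 and stayed between 17 and 19 with all libraries, DESeq2, the likelihood ratio test, RLE factors, no filter or the additive model, and between 12 and 17 with single libraries left out, the 12 without CD45- *Hoil1-/-* f/f replicate 2. Over all genes, 25.1% were called higher in CD45- cells in the main fit and 28% with the additive model. The shares for the other settings are not given here, so these counts do not show whether Hox genes were steadier than other genes. The counts of 0 moved with the test. For the difference of the *Hoil1* effect between fractions DESeq2 called 3 and the likelihood ratio test 4. For the *Hoil1* effect in CD45- cells they called 2 and 1, for the *Il4ra* effect 2 and 1, and for the interaction 7 and 6. The cause was not tested. Leaving out single CD45- libraries gave 0 to 1 for the *Hoil1* effect, 0 to 1 for the *Il4ra* effect and 0 to 4 for the interaction, with the 1, 1 and 4 without *Hoil1-/-* f/f replicate 2 (0.988%, 1.26% and 4.13% of all genes were called there), which leaves that group 1 library assumed to vary like the others, and 2 for the interaction without *Hoil1+/+* ΔIEC replicate 3 (7.48% of all genes). In CD45+ cells, and for the fraction difference of the *Hoil1* effect, leaving out libraries gave 0 throughout. With a threshold of 1 CPM, 2 in place of 5 members were detected in most of the CD45+ libraries, and leaving out libraries gave 1 to 2 members detected in all of them, with 2 without *Hoil1+/+* f/f replicate 1 or *Hoil1-/-* ΔIEC replicate 1. No paired analysis was possible because the labels carry no replicate numbers that link libraries. Depth limits the members at 0, since 3 counts stand for 0.410 CPM in the shallowest CD45- library (6028275 counts).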
